A study of Homo sapiens with 8 samples.

Results

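The ephrins, Eph receptors, semaphorins, plexins and neuropilins are the ligands and receptors of contact-dependent and secreted guidance, and 53 genes of these families were followed here in human squamous carcinoma cells. Within these families, genes were taken by symbol, as the EPHA and EPHB receptors, EFNA and EFNB ligands, semaphorins of classes 3 to 7, plexins A to D, NRP1 and NRP2, out of 61533 gene identifiers. CAL27 (a squamous carcinoma of the tongue) and A431 (an epidermoid carcinoma of the skin) are established lines. Each received an inhibitor named only as NEDD8i in the labels, or DMSO, the solvent, for 16 h. The groups were CAL27 NEDD8i, CAL27 DMSO, A431 NEDD8i and A431 DMSO, with 2 libraries each. NEDD8 is a small ubiquitin-like protein that is attached to cullins, the scaffolds of a large class of ubiquitin ligases. The labels name neither the compound nor its dose, and each tumour type is represented by a single line. Whether a group's libraries came from separate cultures is not stated, so every p-value here rests on library-to-library spread that may be technical.

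Eph receptors are tyrosine kinases that bind ephrins tethered to a neighbouring cell. Ephrin-A ligands are held by a lipid anchor and ephrin-B ligands span the membrane, so that both the receptor cell and the ligand cell can receive a signal. Semaphorins signal through plexins, which act on small GTPases and the actin skeleton. The secreted class 3 semaphorins mostly need a neuropilin as co-receptor, classes 4 to 6 are membrane proteins, and SEMA7A carries a lipid anchor. These families were named for steering axons, and in stratified epithelium they take part in cell sorting, spreading and layering. In keratinocytes EPHA2 and its ligand ephrin-A1 are the best known pair.

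The libraries held 49037868 to 62509817 reads assigned to genes, and of these 94210 to 200534 fell on the 53 genes. All 11 keratinocyte or squamous markers had reads in every group, and their summed level was 21337 to 22138 CPM in CAL27 NEDD8i, 15068 to 15102 CPM in CAL27 DMSO, 14134 to 14686 CPM in A431 NEDD8i and 10319 to 10452 CPM in A431 DMSO. Single markers went both ways at adjusted p under 0.05 (edgeR quasi-likelihood). KRT14, KRT6A, KRT17, DSG3, DSC3, SFN, CDH1 and EPCAM were higher under NEDD8i in both lines, and KRT5 and PKP1 lower in both. TP63 fell 4.53-fold in CAL27 (adjusted p = 3.18e-15) and did not pass in A431 (adjusted p = 0.153). CPM are counts scaled to library size after TMM correction. The libraries read 3' ends, and CPM carry no correction for gene length. Levels of single genes are not ranked against each other here, and sums over genes are sums of scaled reads. Endothelial markers (8 genes) summed to 11 to 11.1 CPM in CAL27 NEDD8i, 6.25 to 6.63 in CAL27 DMSO, 5.3 to 5.56 in A431 NEDD8i and 19.8 to 22 in A431 DMSO. Fibroblast markers (7 genes) summed to 6.49 to 10.8 CPM in CAL27 NEDD8i, 20.8 to 24.1 in CAL27 DMSO, 17.6 to 18.5 in A431 NEDD8i and 35.4 to 39 in A431 DMSO. Immune markers (6 genes) summed to 1.74 to 1.77 CPM in CAL27 NEDD8i, 16.3 to 17.8 in CAL27 DMSO, 0.875 to 1.78 in A431 NEDD8i and 6.38 to 6.78 in A431 DMSO. Of these markers, KDR, PTPRC and CD68 had 0 reads. The sum of 7 neural markers moved with treatment, at 126 to 143 CPM in CAL27 NEDD8i against 12 to 13 CPM in CAL27 DMSO, and at 245 to 246 CPM in A431 NEDD8i against 7.61 to 8.42 CPM in A431 DMSO. MAP2, a microtubule-associated protein, averaged 129 CPM in CAL27 NEDD8i and 4.84 CPM in CAL27 DMSO, and 244.9 CPM in A431 NEDD8i and 7.85 CPM in A431 DMSO. SYT1, a synaptic vesicle protein, averaged 4.86 CPM in CAL27 NEDD8i and 7.5 CPM in CAL27 DMSO (adjusted p = 0.264, edgeR quasi-likelihood). By the same test SYT1 was higher in A431 (0.514 CPM under NEDD8i, 0.0869 under DMSO, adjusted p = 0.0296), although its libraries overlapped. GFAP was higher in CAL27, on 59 reads under NEDD8i against 4 under DMSO (adjusted p = 0.0448). ELAVL4 had 0 reads, and TUBB3 averaged at most 0.128 CPM in a group. Mitochondrial genes took 1.45% and 1.02% of reads in CAL27 NEDD8i, 1.77% and 1.56% in CAL27 DMSO, 1.96% and 2.27% in A431 NEDD8i and 2.69% and 3.15% in A431 DMSO, so this share was lower under NEDD8i in both lines without overlap. The part of these markers and of the mitochondrial share in the results was not tested.

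Of the 53 genes, 47 had enough reads for a test across all 18738 genes that passed the same filter. The 6 left out were EPHA5, EPHA6, EPHA7, EPHA8, EFNA2 and SEMA6A, of which EPHA5, EPHA8, EFNA2 and SEMA6A had 0 reads in all 8 libraries. In CAL27, 12 of the 47 rose under NEDD8i and 22 fell at adjusted p under 0.05 (edgeR quasi-likelihood), while 49.6% of all genes tested were called, 23.2% higher and 26.4% lower. The called members were 72.3% of those tested, with 6 rises and 13 falls of at least 2-fold (40.4%, while 18.7% of all genes moved that far), and their median log2 change over all 47 was -0.46, beside -0.04 over all genes. In A431, 14 rose and 15 fell, or 61.7% of the 47, while 43.6% of all genes tested were called, 22.5% higher and 21.1% lower. Of these, 5 rose and 7 fell at least 2-fold (25.5%, while 13.4% of all genes did), and the median over the 47 was -0.05, beside -0.01 over all genes. In bulk libraries, fewer cells that express a gene and less RNA of it per cell cannot be told apart. The reads of all 53 genes together amounted to 2069 ± 3.39 CPM in CAL27 NEDD8i and 1795 ± 69.4 CPM in CAL27 DMSO (SD, n = 2 each), and to 3414 ± 34.5 CPM in A431 NEDD8i and 3500.5 ± 20.9 CPM in A431 DMSO. The families' total stood at 1.15 times its DMSO level in CAL27 and at 0.975 times in A431, but EPHA2 reads were 50.9% of the CAL27 NEDD8i total. Without EPHA2, left out after its values were seen, the other 52 genes summed to 1017 ± 3.47 CPM in CAL27 NEDD8i and 1583 ± 56.7 CPM in CAL27 DMSO (0.643 times). In A431 they summed to 2807 ± 25.9 CPM under NEDD8i and 3252 ± 28 CPM under DMSO (0.863 times).

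A total of 15 members were called in the same direction in both lines and 11 in opposite directions, and each of these 11 also had a called difference between the lines. Opposite calls were 23.4% of the 47 members, while 4.99% of all genes tested had them. Same-direction calls were 31.9% of the members, while 26.1% of all genes tested had them. Higher in both lines were EPHA2, EPHB6, EFNB1, EFNB2, PLXNA2 and SEMA7A, or 12.8% of the 47, while 13.3% of all genes were. Lower in both were EPHA4, EPHB2, EFNA1, EFNA4, PLXNA1, PLXNB1, PLXNB2, SEMA3D (in A431 on 12 reads) and SEMA6B, or 19.1%, while 12.8% of all genes were. Lower in CAL27 and higher in A431 were EPHA1, EPHB3, EPHB4, NRP1, NRP2, PLXNB3 and SEMA4B. Higher in CAL27 and lower in A431 were SEMA3B, SEMA3C, SEMA5A and SEMA6D. Some of these calls were not kept by every alternative fit. The A431 call of SEMA3B was lost in 3 alternatives and the CAL27 call of SEMA6D in 2. Among same-direction members, EFNB1, EFNA4, PLXNB1, PLXNA2 and SEMA3D each lost a call in at least 1 alternative. A further 8 were called in CAL27 alone, 3 in A431 alone and 10 in neither. Read counts of the NEDD8i and DMSO libraries, scaled to CPM, did not overlap for 41 of the 47 tested members in CAL27 and 39 of the 47 in A431. Over all genes tested, 74.6% did not overlap in CAL27 and 67.4% in A431.

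**Figure D1:**
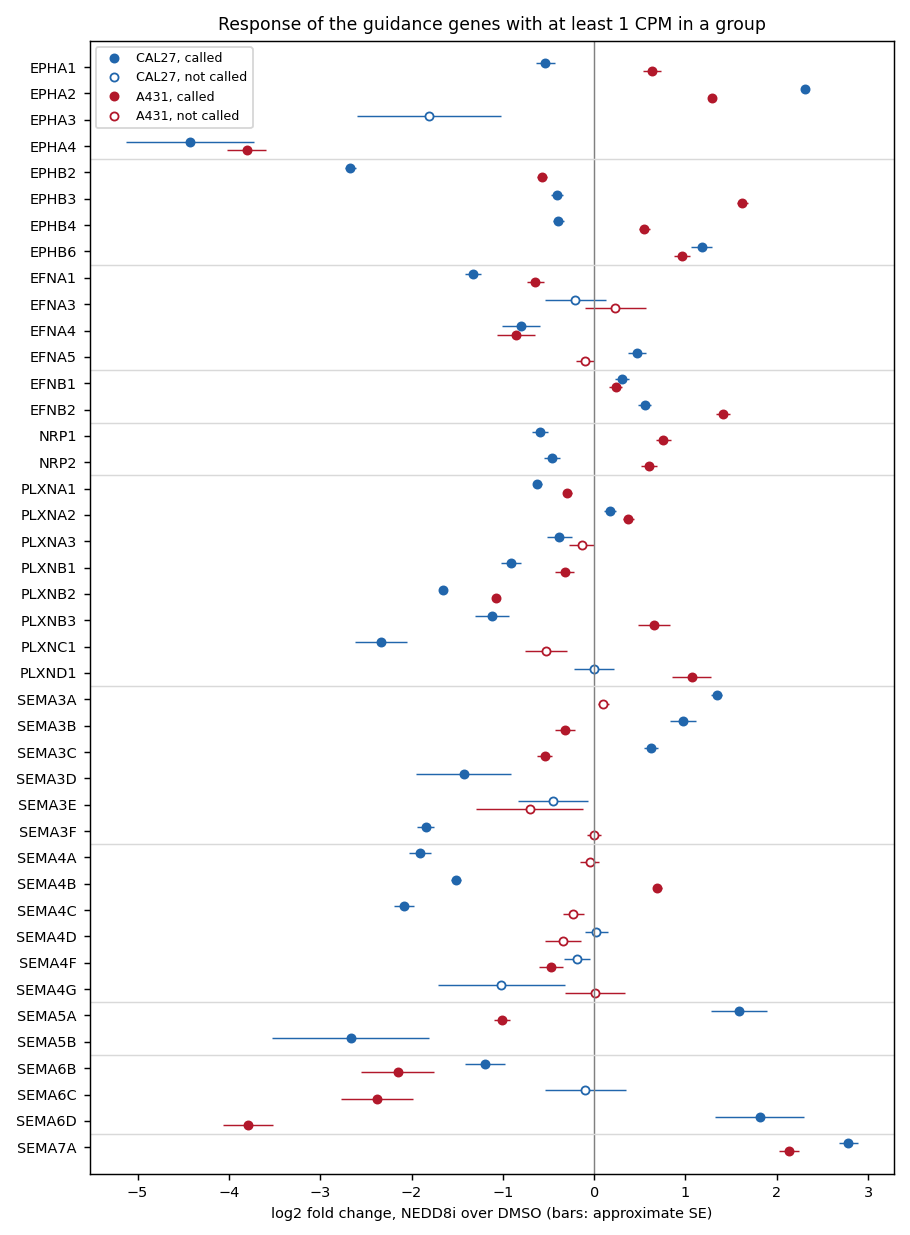
Log2 fold changes of NEDD8i over DMSO (horizontal axis) for the 42 guidance genes reaching 1 CPM in some group, ordered by family, with CAL27 in blue above A431 in red, bars as approximate SE, filled points called at adjusted p under 0.05 and open points not called. Changes in a line with 0 reads in either of its groups are not drawn, and the reader should see EPHA2 and SEMA7A to the right and EPHA4 and PLXNB2 to the left in both lines, while EPHB3, both neuropilins and SEMA4B lie on opposite sides.

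Promoter sequences are shown for the members with the largest called rises in CAL27 (SEMA7A and EPHA2), which rose in A431 too, for EPHA4, which fell most in both among members with reads in all groups, and for SEMA6D, whose fall in A431 was close to that of EPHA4 and whose call in CAL27 was a rise. They are from RefSeq on GRCh38.p14, run 5′ to 3′ on the gene's strand, and cover 250 bases before the annotated start and 50 bases from it. The windows are chr1:16156020-16156319 (minus strand) for EPHA2, chr15:74433909-74434208 (minus) for SEMA7A, chr2:221574153-221574452 (minus) for EPHA4 and chr15:47183839-47184138 (plus) for SEMA6D. Capitals mark matches on either strand to the antioxidant response element TGACNNNGC bound by NRF2, the core ACGTG bound by HIF, and the AP-1 site TGANTCA.
EPHA2: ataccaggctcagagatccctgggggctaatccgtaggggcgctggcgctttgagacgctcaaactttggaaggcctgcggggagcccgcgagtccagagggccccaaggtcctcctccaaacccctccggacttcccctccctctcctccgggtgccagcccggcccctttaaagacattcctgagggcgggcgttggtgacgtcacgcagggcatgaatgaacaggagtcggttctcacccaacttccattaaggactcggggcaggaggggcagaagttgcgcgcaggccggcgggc
SEMA7A: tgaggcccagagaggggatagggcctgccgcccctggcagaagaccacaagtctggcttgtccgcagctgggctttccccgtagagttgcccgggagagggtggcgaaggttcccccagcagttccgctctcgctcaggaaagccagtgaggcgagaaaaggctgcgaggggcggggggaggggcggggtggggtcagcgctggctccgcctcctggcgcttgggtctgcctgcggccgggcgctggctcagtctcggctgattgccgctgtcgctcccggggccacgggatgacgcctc
EPHA4: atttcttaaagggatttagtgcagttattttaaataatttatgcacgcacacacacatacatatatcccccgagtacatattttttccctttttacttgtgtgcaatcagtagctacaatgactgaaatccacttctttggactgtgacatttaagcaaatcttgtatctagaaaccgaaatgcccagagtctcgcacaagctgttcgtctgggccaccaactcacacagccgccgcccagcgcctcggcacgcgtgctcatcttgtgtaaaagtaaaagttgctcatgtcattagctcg
SEMA6D: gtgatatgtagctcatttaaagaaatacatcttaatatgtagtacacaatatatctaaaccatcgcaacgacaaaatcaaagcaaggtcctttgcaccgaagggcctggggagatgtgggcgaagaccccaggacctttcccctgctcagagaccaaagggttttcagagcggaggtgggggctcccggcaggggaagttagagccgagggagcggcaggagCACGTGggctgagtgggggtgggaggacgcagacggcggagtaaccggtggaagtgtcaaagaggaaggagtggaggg
Only the SEMA6D window among these 4 held a match, the run CACGTG, which reads as ACGTG on both strands so that its 2 matches overlap. GC content was 64.3% in the EPHA2 window, 70% in SEMA7A, 43% in EPHA4 and 54.7% in SEMA6D. The median was 66.7% over the 47 members that matched a RefSeq promoter and 58.3% over 27305 promoters of all genes. Those 47 members are not the same 47 as the tested members, since they include untested genes such as EPHA7. The ACGTG core was present in 8 of the 47 promoters (17%) and in 21.6% of 27305 promoters of all genes. TGACNNNGC was present in 6 (12.8%), those of EFNA1, EFNA4, EFNA5, EFNB2, EPHA7 and PLXNA4, and in 13.6% of all promoters. TGANTCA was present in that of PLXNC1 alone (2.13%) and in 7.76% of all. A match is a string of letters and not a shown binding site.

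Among the Eph receptors, EPHA2 rose and EPHA4 fell in both lines, while EPHB2 fell in both and EPHB3 and EPHB4 moved in opposite directions. Of 10 tested receptors, 2 rose and 5 fell in CAL27, while 23.2% of all genes tested rose and 26.4% fell. In A431, 5 receptors rose and 2 fell, while 22.5% of all genes tested rose and 21.1% fell. EPHA2 (ENSG00000142627.13, chromosome 1, 16124337 to 16156069 on GRCh38), the main Eph receptor of keratinocytes and of many carcinomas, had 1052 and 1052 CPM in CAL27 NEDD8i libraries, against 203 and 221 CPM in CAL27 DMSO libraries. In A431 it had 613 and 601 CPM under NEDD8i, against 254 and 244 CPM under DMSO. The groups did not overlap in either line, and the rise was 4.96-fold in CAL27 (log2 2.31 ± 0.05, adjusted p = 2e-16) and 2.44-fold in A431 (log2 1.29 ± 0.05, adjusted p = 3.44e-13). The ± after a log2 change is an approximate standard error from the quasi-likelihood F statistic. The CAL27 response exceeded the A431 response by 1.02 ± 0.06 (adjusted p = 1.67e-09).

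EPHA4 (ENSG00000116106.12, chromosome 2, 221418027 to 221574202), a receptor that binds ephrins of both the A and B kinds, had 2 and 0 reads in CAL27 NEDD8i libraries, against 21 and 30 reads in CAL27 DMSO libraries. A431 libraries held 1.75 and 2.55 CPM under NEDD8i, against 27.2 and 33.3 CPM under DMSO. It was thus a sparsely read gene in CAL27 and a clearly read one in A431 DMSO, and fell in both, with log2 changes of -4.42 ± 0.70 in CAL27 (adjusted p = 4.11e-05) and -3.80 ± 0.21 in A431 (adjusted p = 1.68e-10). The CAL27 value depends on the few reads left under NEDD8i and was -7.58 without CAL27 NEDD8i replicate 1 and -3.43 without replicate 2. The responses of the lines did not differ at the threshold (difference -0.62 ± 0.86, adjusted p = 0.656). EPHA1, an EphA receptor of epithelia, had 17.2 and 22.2 CPM in CAL27 NEDD8i, against 27.6 and 29.4 CPM in CAL27 DMSO. The A431 values were 75 and 69.6 CPM under NEDD8i, against 43.8 and 49.6 CPM under DMSO. It fell by 0.53 ± 0.11 in CAL27 and rose by 0.63 ± 0.10 in A431, a difference of -1.16 ± 0.15 (adjusted p = 6.97e-06).

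EPHB2 and EPHB3, receptors that sort cells by position along the intestinal crypt, changed differently. EPHB2 (chromosome 1, 22710839 to 22921500) had 13.8 and 13.3 CPM in CAL27 NEDD8i, against 83.5 and 88.5 CPM in CAL27 DMSO. Values in A431 were 124 and 118 CPM under NEDD8i, against 180.4 and 178 CPM under DMSO. It fell 6.36-fold in CAL27 (log2 -2.67 ± 0.06, adjusted p = 1.51e-15) and 1.48-fold in A431 (log2 -0.57 ± 0.06, adjusted p = 1.96e-07), and the difference was -2.10 ± 0.08 (adjusted p = 6.78e-12). EPHB3 (chromosome 3, 184561785 to 184582408) had 19.6 and 18.5 CPM in CAL27 NEDD8i, against 25.3 and 25.2 CPM in CAL27 DMSO. Its A431 levels were 201 and 205 CPM under NEDD8i, against 68 and 64 CPM under DMSO. EPHB3 rose 3.07-fold in A431 (log2 1.62 ± 0.06, adjusted p = 7.49e-13) and fell 1.33-fold in CAL27 (adjusted p = 5.64e-05), a difference of -2.03 ± 0.09. EPHB4, a receptor of ephrin-B2 best known from veins, had 66.3 and 66.6 CPM in CAL27 NEDD8i, against 89.1 and 85.3 CPM in CAL27 DMSO. In A431 it had 72.3 and 75.6 CPM under NEDD8i, against 50.9 and 50.2 CPM under DMSO, so that it fell by 0.39 ± 0.06 in CAL27 and rose by 0.55 ± 0.06 in A431. EPHB6, whose kinase domain lacks catalytic activity, rose 2.26-fold in CAL27 and 1.95-fold in A431, with no called difference (0.21 ± 0.14, adjusted p = 0.273). EPHB1, EPHA3 and EPHA10 stayed under 1.3 CPM in every library and passed no test of treatment in the main fit. CAL27 libraries held 6 to 48 reads of EPHB1 and 12 to 82 reads of EPHA3. For EPHB1 the CAL27 change of -1.95 ± 1.07 (adjusted p = 0.148) was called with halved counts (adjusted p = 0.0422). It was also called with the CAL27 libraries fitted alone (adjusted p = 0.0302). The EPHB1 difference between the lines was -2.76, and -7.47 without A431 DMSO replicate 2. The EPHA3 change in CAL27 of -1.81 ± 0.79 (adjusted p = 0.0723) was called in 7 alternatives, among them those without any of the 4 A431 libraries in turn (adjusted p = 0.0379 to 0.0475).

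Among the ephrins, EFNB1 and EFNB2 rose and EFNA1 and EFNA4 fell under NEDD8i in both lines, and EFNA5 rose in CAL27. EFNB2, the transmembrane ligand ephrin-B2, had 68 and 66.3 CPM in CAL27 NEDD8i, against 45.8 and 45.5 CPM in CAL27 DMSO. A431 libraries held 41.6 and 43.8 CPM under NEDD8i, against 15.7 and 16.4 CPM under DMSO. It rose 2.66-fold in A431 (log2 1.41 ± 0.08, adjusted p = 1.05e-10) and 1.47-fold in CAL27 (log2 0.56 ± 0.07, adjusted p = 3.61e-06), and the difference of -0.86 ± 0.10 was called (adjusted p = 5e-06). Exons of an opposite-strand gene cover 26.1% of the exonic bases of EFNB2, and strand was not used in counting. EFNB1, another transmembrane ligand, rose by 0.30 ± 0.07 in CAL27 and 0.23 ± 0.07 in A431, and the A431 call was lost without A431 NEDD8i replicate 1 (adjusted p = 0.103). EFNB3 had 0 to 46 reads and passed no test of treatment.

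EFNA1, the ligand of EPHA2 that keratinocytes display on their surface, had 26.1 and 25.7 CPM in CAL27 NEDD8i, against 62.3 and 67.9 CPM in CAL27 DMSO. The A431 values were 14.6 and 13.8 CPM under NEDD8i, against 23.6 and 20.7 CPM under DMSO. It fell 2.51-fold in CAL27 (log2 -1.33 ± 0.09, adjusted p = 9.85e-10) and 1.56-fold in A431 (log2 -0.64 ± 0.09, adjusted p = 2.28e-05). Receptor and ligand of this pair therefore moved in opposite directions in both lines, EPHA2 up and EFNA1 down, and each move was larger in CAL27 (EFNA1 difference -0.68 ± 0.13, adjusted p = 0.00045). EFNA4 fell by 0.80 ± 0.21 in CAL27 and 0.85 ± 0.21 in A431. The EFNA4 calls were lost without CAL27 DMSO replicate 2 (adjusted p = 0.0555) and without A431 NEDD8i replicate 2 (adjusted p = 0.0632). EFNA5 rose by 0.47 ± 0.10 in CAL27, and in A431 it had 24.9 and 25.2 CPM under NEDD8i, against 26.7 and 26.9 CPM under DMSO (log2 -0.10 ± 0.10, adjusted p = 0.453). EFNA3 had 1.1 to 2.6 CPM in all libraries and no call. EFNA4, EFNA3 and EFNA1 lie next to each other on chromosome 1, with gaps of 9.28 and 40.3 kb. Exons of a read-through gene joining EFNA4 and EFNA3 cover 46.9% of the exonic bases of EFNA3 and 15% of those of EFNA4, and reads over shared exons were not counted.

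**Figure D2:**
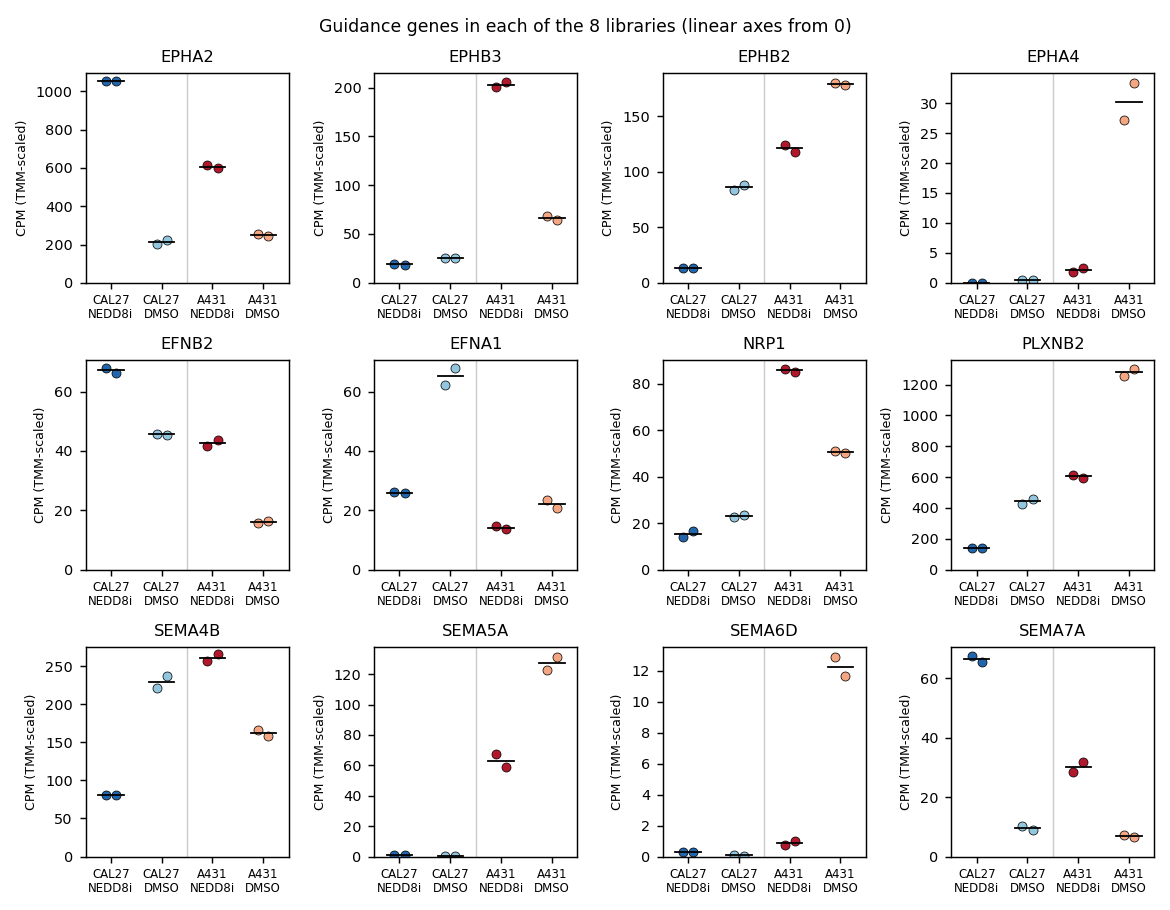
CPM (vertical axes, linear from 0, a separate scale for each gene) of 12 guidance genes in the 8 libraries, with a point for each library, a line at the group mean, and the groups CAL27 NEDD8i, CAL27 DMSO, A431 NEDD8i and A431 DMSO from left to right. EPHA2, EFNB2 and SEMA7A stand higher under NEDD8i in both lines, EPHB2, EPHA4, EFNA1 and PLXNB2 lower in both, and EPHB3, NRP1 and SEMA4B higher in A431 and lower in CAL27.

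Both neuropilins, the co-receptors of secreted semaphorins and of VEGF, fell in CAL27 and rose in A431. NRP1, which pairs mainly with SEMA3A, had 13.9 and 16.8 CPM in CAL27 NEDD8i, against 22.6 and 23.7 CPM in CAL27 DMSO. Values in A431 were 86.5 and 84.8 CPM under NEDD8i, against 51 and 50.2 CPM under DMSO. It fell by 0.59 ± 0.09 in CAL27 (adjusted p = 2.21e-05) and rose by 0.76 ± 0.08 in A431 (adjusted p = 6.56e-07), a difference of -1.35 ± 0.12. NRP2, which pairs mainly with SEMA3F, had 31.9 and 33 CPM in CAL27 NEDD8i, against 40.4 and 49 CPM in CAL27 DMSO. Its A431 levels were 62.7 and 68.3 CPM under NEDD8i, against 42.4 and 44.1 CPM under DMSO. Its changes were -0.46 ± 0.09 in CAL27 and 0.60 ± 0.09 in A431, both called, with a difference of -1.06 ± 0.12 (adjusted p = 3.21e-06).

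Among the 9 plexins, 1 rose and 6 fell in CAL27, while 23.2% of all genes tested rose and 26.4% fell. In A431, 3 plexins rose and 3 fell, while 22.5% of all genes tested rose and 21.1% fell. For 7 plexins the CAL27 response was called lower than the A431 response, while it was for 19.8% of all genes tested. These 7 include PLXNA4, which had at most 16 reads in a library. The median difference was -0.59 over the 9 plexins and -0.04 over all genes tested. PLXNB2 (ENSG00000196576.16, chromosome 22, 50274979 to 50307646), a receptor of SEMA4C, had 142 and 140.1 CPM in CAL27 NEDD8i, against 429 and 459 CPM in CAL27 DMSO. In A431 it had 616 and 597 CPM under NEDD8i, against 1258 and 1301 CPM under DMSO. It fell 3.15-fold in CAL27 (log2 -1.65 ± 0.04, adjusted p = 6.07e-15) and 2.11-fold in A431 (log2 -1.08 ± 0.04, adjusted p = 1.56e-12). The difference of -0.58 ± 0.06 was called as well. PLXNB1, the receptor of SEMA4D, fell by 0.91 ± 0.11 in CAL27 and 0.32 ± 0.10 in A431, and the A431 call was lost without A431 DMSO replicate 2 (adjusted p = 0.0815) or A431 NEDD8i replicate 1 (adjusted p = 0.119). The difference of -0.59 ± 0.15 was no longer called without CAL27 DMSO replicate 2 (adjusted p = 0.0567). PLXNB3, a receptor of SEMA5A, had 2.04 and 2.77 CPM in CAL27 NEDD8i, against 4.97 and 5.5 CPM in CAL27 DMSO. A431 libraries held 13 and 12.2 CPM under NEDD8i, against 7.6 and 8.44 CPM under DMSO. It fell by 1.12 ± 0.19 in CAL27 and rose by 0.66 ± 0.17 in A431, and same-strand exons of SRPK3 cover 19.6% of its exonic bases.

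PLXNC1, the plexin that binds SEMA7A, had 0.632 and 0.418 CPM in CAL27 NEDD8i, against 2.61 and 2.65 CPM in CAL27 DMSO. The A431 values were 4.46 and 6.1 CPM under NEDD8i, against 8.1 and 7.1 CPM under DMSO. It fell 5.03-fold in CAL27 (log2 -2.33 ± 0.29, adjusted p = 2.21e-06), and its A431 change of -0.52 ± 0.23 did not pass (adjusted p = 0.077) although the libraries did not overlap, and was called in 3 alternatives. PLXND1, the receptor of SEMA3E, had 4.29 and 3.44 CPM in CAL27 NEDD8i, against 4.06 and 3.69 CPM in CAL27 DMSO. Values in A431 were 8.82 and 9.1 CPM under NEDD8i, against 3.44 and 5.12 CPM under DMSO. It rose 2.1-fold in A431 (adjusted p = 0.000519) and overlapped in CAL27, and the called difference of -1.07 ± 0.30 became -0.80 without A431 DMSO replicate 1 (adjusted p = 0.0504). Of the A plexins, the partners of neuropilins, PLXNA1 fell by 0.62 ± 0.05 in CAL27 and 0.30 ± 0.05 in A431, and PLXNA2 rose by 0.17 ± 0.06 in CAL27 and 0.38 ± 0.06 in A431. The PLXNA2 call in CAL27 was lost without CAL27 DMSO replicate 1, CAL27 DMSO replicate 2 or CAL27 NEDD8i replicate 1, with adjusted p of 0.0555 to 0.122. PLXNA3 was called lower in CAL27 (-0.38 ± 0.14), a call that 5 alternatives did not keep. It became -0.43 without CAL27 DMSO replicate 1 (adjusted p = 0.0544), -0.29 without CAL27 DMSO replicate 2 (adjusted p = 0.227) and -0.20 without CAL27 NEDD8i replicate 2 (adjusted p = 0.331). PLXNA4 had 0 to 16 reads, and its called difference between the lines rests on 0 reads in CAL27 NEDD8i against 4 and 4 in CAL27 DMSO, and 14 and 16 reads in A431 NEDD8i against 4 and 4 in A431 DMSO. That call was lost in 10 of the 12 alternatives that gave it a value, among them every one that left out a library (adjusted p = 0.113 to 0.16).

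Among the 19 tested semaphorins, SEMA7A rose in both lines, and 10 of the 18 others had a called difference between the lines. That difference was called for 34% of all genes tested. In CAL27 6 semaphorins rose and 7 fell, while 23.2% of all genes tested rose and 26.4% fell. In A431 2 semaphorins rose and 8 fell, while 22.5% of all genes tested rose and 21.1% fell. SEMA7A (ENSG00000138623.10, chromosome 15, 74409289 to 74433958), a lipid-anchored semaphorin that binds PLXNC1 and beta-1 integrins, had 67.5 and 65.6 CPM in CAL27 NEDD8i, against 10.4 and 8.96 CPM in CAL27 DMSO. Its A431 levels were 28.5 and 31.7 CPM under NEDD8i, against 7.27 and 6.46 CPM under DMSO. It rose 6.89-fold in CAL27 (log2 2.78 ± 0.10, adjusted p = 4.65e-13) and 4.39-fold in A431 (log2 2.13 ± 0.11, adjusted p = 4.19e-11). The difference of 0.65 ± 0.15 was called (adjusted p = 0.00209). SEMA7A had the largest called rise among the guidance genes in each line by edgeR. Ligand and plexin of this pair moved apart in CAL27, where SEMA7A rose and PLXNC1 fell.

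The class 3 semaphorins, secreted ligands that mostly repel or collapse moving cell edges, rose in 3 and fell in 2 of 7 cases in CAL27, while the 3 calls in A431 were falls. SEMA3A, the ligand of NRP1, had 117 and 112 CPM in CAL27 NEDD8i, against 45.5 and 44.9 CPM in CAL27 DMSO. In A431 it had 125 and 130.2 CPM under NEDD8i, against 112 and 126 CPM under DMSO. It rose 2.54-fold in CAL27 (log2 1.34 ± 0.06, adjusted p = 8.32e-12) and its A431 change of 0.10 ± 0.06 did not pass (adjusted p = 0.191, and 0.0447 without A431 DMSO replicate 2), with a called difference of 1.24 ± 0.09. SEMA3F, the ligand of NRP2, had 6 and 6.82 CPM in CAL27 NEDD8i, against 22.6 and 23.5 CPM in CAL27 DMSO. A431 libraries held 73.8 and 66.8 CPM under NEDD8i, against 70.8 and 70.3 CPM under DMSO. It fell 3.59-fold in CAL27 (log2 -1.84 ± 0.09, adjusted p = 2.24e-11), its A431 groups overlapped, and the difference was -1.84 ± 0.12 (adjusted p = 3.44e-09). SEMA3B, which lies 78.5 kb from SEMA3F on chromosome 3, had 5.72 and 7.87 CPM in CAL27 NEDD8i, against 3.32 and 3.59 CPM in CAL27 DMSO. The A431 values were 41 and 40.6 CPM under NEDD8i, against 48.4 and 53.2 CPM under DMSO. These neighbours moved in opposite directions in CAL27, where SEMA3B rose by 0.98 ± 0.14. The SEMA3B fall in A431 of 0.32 ± 0.11 (adjusted p = 0.0284) was lost without A431 DMSO replicate 2 (adjusted p = 0.173), A431 NEDD8i replicate 1 (adjusted p = 0.103) or A431 NEDD8i replicate 2 (adjusted p = 0.126).

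SEMA3C, a semaphorin linked to invasion in carcinomas, had 51.4 and 48.1 CPM in CAL27 NEDD8i, against 32.4 and 32.2 CPM in CAL27 DMSO. Values in A431 were 45.2 and 39.7 CPM under NEDD8i, against 60.6 and 63.1 CPM under DMSO. It rose by 0.62 ± 0.08 in CAL27 and fell by 0.54 ± 0.08 in A431, a difference of 1.17 ± 0.11 (adjusted p = 2.67e-07). SEMA3D had 88 and 112 reads in CAL27 NEDD8i, against 154 and 434 in CAL27 DMSO, and in A431 0 and 0 under NEDD8i, against 12 and 0 under DMSO. A single DMSO library held most reads of it in each line, and it was called lower in CAL27 (log2 -1.43 ± 0.52, adjusted p = 0.0313) and in A431 (adjusted p = 0.0414). Without CAL27 DMSO replicate 2 the CAL27 change was -0.69 (adjusted p = 0.548), and the call was also lost without CAL27 NEDD8i replicate 1 (adjusted p = 0.101), without replicate 2 (adjusted p = 0.0754) and with DESeq2 (adjusted p = 0.563). Without A431 DMSO replicate 1 the A431 libraries held 0 reads of it, and the A431 call was also lost without A431 NEDD8i replicate 1 (adjusted p = 0.106), without replicate 2 (adjusted p = 0.129), with halved counts (adjusted p = 0.0833) and with DESeq2 (adjusted p = 0.078). SEMA3E, a ligand of PLXND1, and SEMA3G passed no test of treatment, although SEMA3E had an adjusted p of 0.0233 in A431 without A431 NEDD8i replicate 2.

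The class 4 semaphorins, membrane ligands of B plexins, included 3 of 6 that fell in CAL27 (SEMA4A, SEMA4B and SEMA4C). Falls in CAL27 were called for 26.4% of all genes tested. In A431, SEMA4B rose and SEMA4F fell. SEMA4B (chromosome 15, 90184963 to 90229670) had 80.5 and 80.2 CPM in CAL27 NEDD8i, against 222 and 237 CPM in CAL27 DMSO. Its A431 levels were 256 and 266 CPM under NEDD8i, against 166 and 158 CPM under DMSO. It fell 2.85-fold in CAL27 (log2 -1.51 ± 0.05, adjusted p = 1.35e-13) and rose 1.62-fold in A431 (log2 0.69 ± 0.05, adjusted p = 4.46e-09). The difference of -2.20 ± 0.07 had an adjusted p of 6.58e-13. SEMA4C, a ligand of PLXNB2, had 9.5 and 10.9 CPM in CAL27 NEDD8i, against 41.3 and 45.4 CPM in CAL27 DMSO. In A431 it had 11.9 and 10.9 CPM under NEDD8i, against 14 and 12.7 CPM under DMSO. It fell 4.24-fold in CAL27 (log2 -2.08 ± 0.11), together with its receptor PLXNB2, and its A431 change of -0.23 ± 0.12 did not pass (adjusted p = 0.129, and 0.0454 with upper-quartile factors). SEMA4A had 4.24 and 3.78 CPM in CAL27 NEDD8i, against 16.6 and 13.5 CPM in CAL27 DMSO. A431 libraries held 41.2 and 43.1 CPM under NEDD8i, against 43.2 and 44.2 CPM under DMSO. SEMA4A thus fell 3.76-fold in CAL27 (adjusted p = 4.67e-10), and its A431 change of -0.05 ± 0.10 did not pass (adjusted p = 0.739). SEMA4F fell by 0.47 ± 0.14 in A431, a call lost without A431 DMSO replicate 1 (adjusted p = 0.105) or A431 NEDD8i replicate 2 (adjusted p = 0.13). SEMA4D, the ligand of PLXNB1, and SEMA4G passed no test of treatment.

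Of the class 5 and class 6 semaphorins, SEMA5A, SEMA6B, SEMA6C and SEMA6D fell in A431, while the CAL27 calls were rises of SEMA5A and SEMA6D and falls of SEMA5B and SEMA6B. SEMA5A (chromosome 5, 9035033 to 9546075), a membrane ligand of PLXNB3, had 44 and 42 reads (0.818 and 0.702 CPM) in CAL27 NEDD8i, against 18 and 12 reads (0.334 and 0.182 CPM) in CAL27 DMSO. The A431 values were 67.7 and 58.6 CPM under NEDD8i, against 123 and 131 CPM under DMSO. It rose by 1.59 ± 0.31 in CAL27 on few reads (adjusted p = 0.000329) and fell by 1.01 ± 0.08 in A431 (adjusted p = 2.96e-08), and the difference was 2.60 ± 0.32. SEMA5B had 8 and 15 reads in CAL27 NEDD8i, against 92 and 57 in CAL27 DMSO, and 0 in every A431 library. Its fall of 2.66 ± 0.86 in CAL27 (adjusted p = 0.0179) was lost without CAL27 DMSO replicate 1 (adjusted p = 0.293) or CAL27 NEDD8i replicate 1 (adjusted p = 0.0928).

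SEMA6D (ENSG00000137872.17, chromosome 15, 47184101 to 47774228), a membrane ligand of PLXNA1, had 17 and 17 reads in CAL27 NEDD8i, against 6 and 4 reads in CAL27 DMSO. Values in A431 were 0.744 and 1.02 CPM under NEDD8i, against 12.9 and 11.6 CPM under DMSO. Its fall in A431 was 13.8-fold (log2 -3.79 ± 0.27, adjusted p = 4.46e-09). Its rise in CAL27 of 1.81 ± 0.48 (adjusted p = 0.0046) was lost without CAL27 DMSO replicate 2 (adjusted p = 0.0633) and with the CAL27 libraries fitted alone (adjusted p = 0.114). The difference of 5.60 ± 0.54 between the lines was called (adjusted p = 3.68e-07). SEMA6B, a ligand of PLXNA4, had 6.15 and 9.27 CPM in CAL27 NEDD8i, against 17.3 and 18 CPM in CAL27 DMSO. Its A431 levels were 6 and 20 reads under NEDD8i, against 78 and 48 reads under DMSO. It fell by 1.19 ± 0.22 in CAL27 and by 2.15 ± 0.39 in A431, and the A431 value was -3.10 without A431 NEDD8i replicate 2. The difference of 0.96 did not pass (adjusted p = 0.13), but was called without A431 DMSO replicate 2 (1.22, adjusted p = 0.0481), A431 NEDD8i replicate 2 (1.91, adjusted p = 0.0274) or CAL27 NEDD8i replicate 1 (1.21, adjusted p = 0.0386). SEMA6C had 0.335 and 0.401 CPM in CAL27 NEDD8i, against 0.297 and 0.484 CPM in CAL27 DMSO. In A431 it had 1.01 and 0.692 CPM under NEDD8i, against 4.12 and 4.7 CPM under DMSO, a fall of 2.38 ± 0.39 (adjusted p = 8.1e-05), while the CAL27 groups overlapped. All 3 tested class 6 semaphorins thus fell in A431, while 21.1% of all genes tested did.

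**Figure D3:**
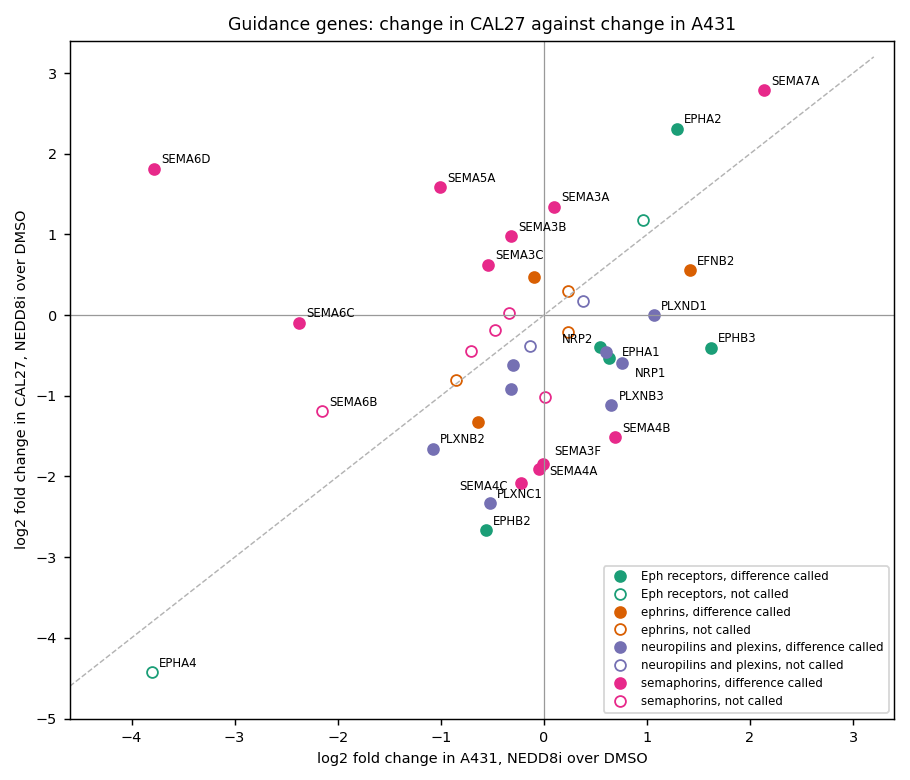
Log2 fold change of NEDD8i over DMSO in CAL27 (vertical axis) against that in A431 (horizontal axis) for the 39 guidance genes that reached 1 CPM somewhere and had reads in all 4 groups, coloured by family, filled where the difference between the lines was called, with a dashed line of equal change. EPHA2 and SEMA7A lie at the upper right, EPHA4 at the lower left, SEMA6D and SEMA5A at the upper left, and EPHB3, NRP1, NRP2, PLXNB3 and SEMA4B at the lower right.

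The test of the difference between the lines called 28 members, 9 with a higher and 19 with a lower response in CAL27 than in A431, or 59.6% of those tested, while 34% of all genes tested were called, 14.2% higher and 19.8% lower. The difference was at least 1 on the log2 scale for 20 members (42.6%), while 10.8% of all genes tested were both called and that far apart. By family, the CAL27 response was called lower for 7 of 9 plexins, both neuropilins and 3 of 5 EphB receptors. The plexin count includes PLXNA4, with at most 16 reads in a library. It also includes PLXNB1 and PLXND1, whose calls each depended on a single library. Class 3 semaphorins were called higher in 3 (SEMA3A, SEMA3B and SEMA3C) and lower in SEMA3F, and class 4 semaphorins were called lower in 3 of 6.

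The lines already differed under DMSO in most guidance genes. CAL27 was higher in 14 and lower in 27 of the 47, or 87.2%, while 58.9% of all genes tested were called, 29.9% higher and 29% lower. Of these, 11 higher and 20 lower differed at least 2-fold (66%, while 27.7% of all genes did). SEMA5A differed most among members with reads in both lines, at 0.334 and 0.182 CPM in CAL27 DMSO and 123 and 131 CPM in A431 DMSO, which was 503-fold lower in CAL27. SEMA6D was 143-fold lower in CAL27 DMSO (0.111 and 0.0606 CPM) than in A431 DMSO (12.9 and 11.6 CPM), and EPHA4 71-fold lower (0.389 and 0.454 CPM in CAL27 DMSO against 27.2 and 33.3 CPM in A431 DMSO). SEMA4G was 32.9-fold lower in CAL27 DMSO (0.148 and 0.0757 CPM) than in A431 DMSO (3.27 and 4.07 CPM), with exons of MRPL43 and another opposite-strand gene over 23% of its exonic bases. In the other direction, SEMA6B had 17.3 and 18 CPM in CAL27 DMSO and 1.36 and 0.931 CPM in A431 DMSO, 15.3-fold higher in CAL27. EPHA3 had 69 and 82 reads in CAL27 DMSO and 0 in every A431 library, and SEMA5B had 92 and 57 reads in CAL27 DMSO and likewise 0 in A431. SEMA3D had 2.85 and 6.57 CPM in CAL27 DMSO and 0.209 and 0 CPM in A431 DMSO. Its log2 difference was 5.41 ± 0.70, and 4.48 to 11.02 when single libraries were left out. Of the 9 plexins, 7 were called lower in CAL27 DMSO than in A431 DMSO, while 29% of all genes tested were. Their median log2 difference was -0.83, beside 0.05 over all genes tested.

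Other guidance genes were read from a list of 54 ligands, receptors, effectors and sheddases, of which 44 could be tested. In CAL27 11 rose and 13 fell (54.5% of the 44, against 49.6% of all genes), and in A431 16 rose and 11 fell (61.4%, against 43.6% of all genes). ADAM10, the protease that clips ephrin-A ligands from the cell surface, fell by 1.01 in CAL27 and 0.38 in A431 on the log2 scale. ADAM17, a related sheddase, rose by 1.01 in CAL27 and 1.76 in A431. VAV3, a guanine nucleotide exchange factor downstream of Eph receptors, averaged 3.37 CPM in CAL27 NEDD8i and 32.1 CPM in CAL27 DMSO, and 7.09 CPM in A431 NEDD8i and 63.8 CPM in A431 DMSO. It fell by 3.24 in CAL27 and 3.16 in A431. RND3, a GTPase that lowers actomyosin tension, rose by 1.82 in CAL27 and 0.94 in A431. The netrin receptor UNC5B fell by 1.25 in CAL27 and 0.79 in A431, and NTN1, the gene of its ligand, fell by 0.87 in CAL27 and 0.29 in A431. Other ligands and receptors of the list moved either way in CAL27. SLIT2 rose 5.54-fold and DSCAM 3.09-fold, while UNC5A fell 34.3-fold to 10 reads, all called. Each of these genes had 0 reads in every A431 library. NGEF, the exchange factor ephexin that acts beneath EPHA4, fell by 2.31 in CAL27 and rose by 0.57 in A431, as did LIMK1, a kinase that controls cofilin, with changes of -0.38 in CAL27 and 0.77 in A431. Both NGEF and LIMK1 also had a called difference between the lines.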

How the data were processed

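RNA of 8 libraries was measured with QuantSeq FWD, a kit that reads transcript 3' ends, per the labels' protocols. The deposited values are raw read counts for each gene. Reads were aligned to GRCh38 with STAR, per the submitters' processing notes, and counted with featureCounts 2.0.8 over exons of the basic GENCODE 39 annotation, per the file headers. Strand was ignored and each mate counted, per the file headers: 70.2% to 76.7% of each library's low counts (1 to 40) were even, so counting intervals and floors, which cover counting error only, are too small. Reads over several genes or places were dropped. No source used here names the alignment filter or STAR version. Identifiers took symbols from a gene name table (61369 of 61533 matched).

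The counts were fitted with edgeR 4.0.16 in R 4.3.3 (TMM, filterByExpr, quasi-likelihood, 1 mean per group, 4 residual degrees of freedom), with Benjamini-Hochberg adjustment over 18738 genes and calls under 0.05. The procedure was tested on simulated data. A floor is 3 counts, 0.048 to 0.0612 CPM in a library. The chi-square of replicate counts was 6.54 to 14.1 times its degrees of freedom, so no library was counted as a copy. Values in each library are given for up to 10 called members with the largest change per line (at least 1 CPM in a group), called differences of at least 1 or of opposite sign, and up to 8 members between lines; other members are given by counts or single values, except EFNA1 and EFNA5, whose library values were added after they were seen. The families, and so their members, and the lists were chosen with earlier results of these data known. Alternatives were RLE and upper-quartile factors, other filters, DESeq2 1.42.0, halved counts, a replicate block, fewer libraries, and each library left out.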

Additional observations from a re-analysis of the deposited data

Results flagged for a closer look

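The response to NEDD8i differed between CAL27 and A431 for 21 guidance genes that either differed by at least 1 on the log2 scale or were called in opposite directions, by the edgeR test of the difference itself. Values are the CAL27 minus the A431 log2 change. Lower in CAL27 among receptors were EPHB2 at -2.10, EPHB3 at -2.03, EPHA1 at -1.16 and EPHB4 at -0.94. Among plexins and neuropilins they were PLXNC1 at -1.81, PLXNB3 at -1.77, NRP1 at -1.35, PLXND1 at -1.07 and NRP2 at -1.06. Among semaphorins they were SEMA4B at -2.20, SEMA4A at -1.86, SEMA4C at -1.86 and SEMA3F at -1.84. The fitted -6.93 of PLXNA4 rests on at most 16 reads in a library and depends on the prior count. Higher in CAL27 were EPHA2 at 1.02, SEMA3C at 1.17, SEMA3A at 1.24, SEMA3B at 1.29, SEMA6C at 2.28, SEMA5A at 2.60 and SEMA6D at 5.60. For SEMA5A and SEMA6D the CAL27 change comes from 4 to 44 reads in a library.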

How the results depend on the processing

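Over all alternatives the number of guidance genes called stayed within 1.5 times the main count. In CAL27 10 to 12 rose and 19 to 24 fell, in A431 13 to 15 rose and 12 to 17 fell, and for the difference between lines 9 to 11 were higher and 17 to 19 lower. Among alternative values for members named by the rule, 747 kept direction and side of the threshold, 13 lost the call and 0 reversed. The rule takes mainly large called changes, so these numbers do not describe the calls it leaves out. Among those, the calls of SEMA3D in both lines, PLXNA2 and PLXNA3 in CAL27 and SEMA3B in A431 were each lost in several alternatives. The labels give no shared culture or batch to a replicate number, and same-numbered libraries did not deviate together (r of -0.05 to 0.01). With the replicate number as a block, 12 rose and 22 fell in CAL27, and 14 rose and 15 fell in A431. Under this block the PLXNA4 difference had an adjusted p of 0.0828, and without a filter beyond 1 count 0.0812. DESeq2 called 12 higher and 20 lower in CAL27 and 14 and 14 in A431. Read number limits the precision of members under 1 CPM. The PLXNA4 difference had no value with halved counts, with DESeq2 or among genes of at least 1 CPM.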
